A study of Homo sapiens with 16 samples.

Results

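HT1080 fibrosarcoma cells exposed for 6 h to A0, a thioxotriazole copper(II) complex, were compared with control cells of the same line, on 4 of the 16 arrays of the series. The comparison covers every probe seen above background in at least 1 of these groups. A probe entered when its detection score, which runs from 0 to 1, was at least 0.99 on both arrays of the A0 6 h group or on both control arrays. This gave 8565 of the 24350 probes named by GI numbers, the sequence identifiers of that array generation. The A0 6 h group consisted of 2 arrays of cells kept in complete medium with 25 µM A0, and the control group of 2 arrays of cells for which no drug, vehicle or time is given. HT1080 is a single established human line. No label tells whether the arrays of a group stem from independent cultures, so every p-value rests on a spread that may be purely technical. The other 12 of the 16 arrays (A0 at 1, 3 and 12 h and cisplatin at 3, 6 and 12 h, also at 25 µM) entered for the estimate of spread and for comparisons of time and drug.

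The title of the series ties A0 to endoplasmic reticulum stress and to paraptosis. As background, endoplasmic reticulum stress arises when unfolded protein builds up in that compartment, and cells answer it by slowing translation and raising the transcripts of chaperones and of the machinery that degrades misfolded protein. Paraptosis is a form of cell death in which the endoplasmic reticulum and the mitochondria swell into vacuoles. Copper ions that enter a cell bind thiol groups and are buffered by glutathione and metallothioneins. None of these pathways could be read here by name, because the reference gene table matched 0 of the probes' GI numbers. The lineage markers of HT1080 could not be checked for the same reason. The results below describe probes, and only 4 are given by identifier.

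At 6 h, 378 of the 8565 detected probes differed from control in limma's moderated test at a Benjamini-Hochberg adjusted p under 0.05, which is 4.41% of them. Of these, 183 were higher with A0 (2.14%) and 195 were lower (2.28%). Over all 9293 probes tested in the series, 379 were called (4.08%), so the 378 come close to the whole set. Before adjustment, 1806 of the 8565 probes had a p under 0.05, against 428.25 that this level gives where no probe differs. That number does not allow for probes that entered through 1 group alone, or for error shared by the probes of an array. Nothing is concluded from the excess. The balance of the directions depended on the scaling. With each array centred on its 75th percentile, 227 probes were higher and 143 lower, and with the authors' processed values 169 and 105. The median log2 fold change over the 8565 probes was -0.03 as reported, 0.06 with the percentile centring and 0.10 with the processed values, so no majority direction is given.

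The called rises reached larger measured sizes than the called falls. A fall cannot take a signal below the background, which limits its size. Probes that entered through A0 6 h alone also count among the rises. Nothing is read from the difference in size. The median size of a called rise was 2.39-fold and that of a called fall 2.17-fold. A rise of at least 4-fold was called at 26 probes and a fall of that size at 6, of which 14 and 3 were detected on all 4 arrays. The same called probes passed 4-fold at 59 and 23 with the processed values, in which values below 16 were set to 16. With the other background correction they did so at 11 and 1. At 8-fold or more there were 10 called rises and 0 called falls, of which 7 and 0 were detected on all 4 arrays. The strongest rise was 316-fold by measured values, at a probe that read 13.38 and 13.67 on the log2 scale on the A0 6 h arrays, against 5.60 and 4.85 on the control arrays (limma adjusted p = 3.43e-05). Only 1 control array detected that probe, so its fold rests in part on a signal below detection. The smallest log2 change that passed the test was 0.67 in size, and the adjusted p nearest to the threshold was 0.0499 among called probes and 0.0506 among the others.

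**Figure D1:**
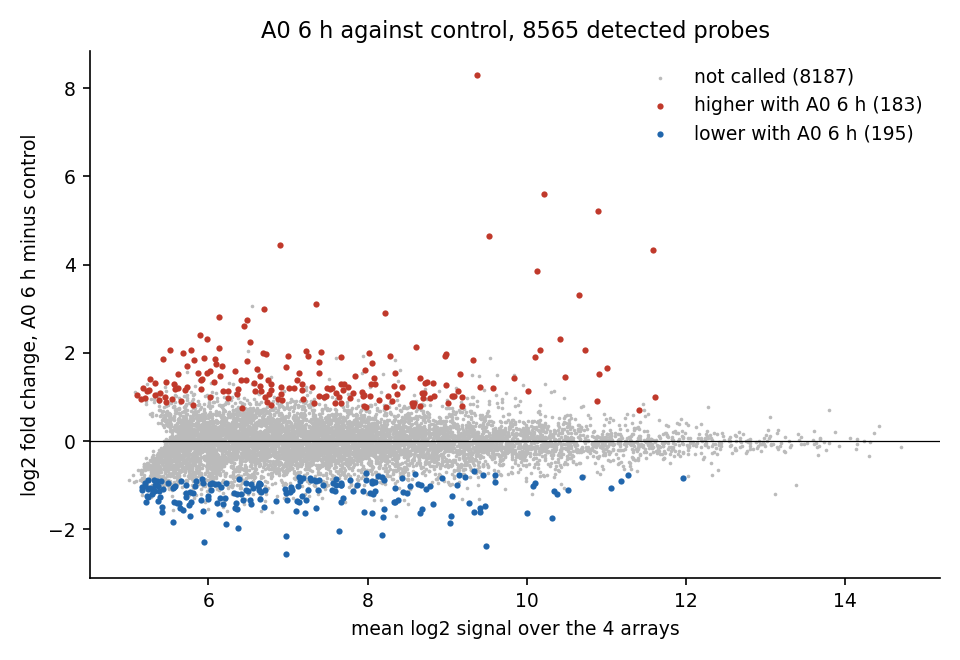
Each point is 1 of the 8565 detected probes, with its mean log2 signal over the 2 A0 6 h and 2 control arrays on the horizontal axis and the log2 fold change of A0 6 h over control on the vertical axis. Red marks the 183 probes called higher and blue the 195 called lower, and the largest changes lie on the red side.

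Called probes that were detected on all 4 arrays give the firmest sizes. Of the 8565 probes, 7276 were detected on all 4 arrays, and 131 of these were called higher and 118 lower. Together these calls are 3.42% of the 7276, against 4.41% called among the 8565. Their median sizes were 2.30-fold for rises and 2.14-fold for falls. A further 117 probes were detected on both A0 6 h arrays and on neither control array, and 38 of these were called higher (32.5%). Only a bound can be given for them: the median was at least 1.85-fold, the largest at least 13.2-fold, and 17 were at least 2-fold higher. In the other direction, 250 probes were detected on both control arrays and on neither A0 6 h array, and 46 of these were called lower (18.4%). They were at least 1.43-fold lower at the median and at least 3.55-fold lower at most, and 4 were at least 2-fold lower. These bounds set the bright group's mean against the higher of the dim probe's own signal and the lowest detected signal of the array, and were not tested themselves. The 117 probes entered through A0 6 h alone and the 250 through control alone. The direction of the 38 and 46 calls was thus set by the filter, and nothing is read from it. Both are part of the 183 higher and 195 lower calls.

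Detection itself differed between the arrays. Of the 8565 probes, A0 6 h array 1 detected 7660 and array 2 detected 8232, against 8317 on control 1 and 8395 on control 2. Both control arrays but only 1 A0 6 h array detected 738 probes, of which 31 were called lower (4.2%, against 4.41% called among the 8565). Both A0 6 h arrays but only 1 control array detected 184 probes, of which 14 were called higher (7.61%). Each of these sets also entered through 1 group alone, which favoured the direction of its calls. The part that the lower detection on A0 6 h array 1 has in the calls of lower signal was not tested.

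The probe GI_4504436-S showed the largest rise among called probes detected on all 4 arrays. Its normalised log2 signal was 12.61 and 13.42 on the A0 6 h arrays, against 7.33 and 7.52 on the control arrays. Both treated values stood far above both control values. The scanner intensities behind them were 5599.3 and 14636.5 with A0, against 288.2 and 286.9 in control. The log2 fold change was 5.59 (SE 0.43, limma adjusted p = 1.46e-05), or 48.2-fold.

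This probe was already high early in the exposure. Its level was 12.00 ± 0.21 at 1 h, 12.83 ± 0.13 at 3 h, 13.02 ± 0.57 at 6 h and 13.16 ± 0.38 at 12 h (log2 signal, SD, n = 2), against 7.42 ± 0.14 in control. The difference of 6 h from 3 h was 0.19, with a 95% interval from -0.73 to 1.10, and that from 12 h was -0.14 (-1.06 to 0.78). Both intervals include 0. Leaving out single arrays turned the sign of both differences.

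The probe GI_26787973-S rose next most by the same rule. It read 13.28 and 13.74 on the A0 6 h arrays, against 8.07 and 8.50 on the control arrays. The log2 fold change was 5.22 (SE 0.38, limma adjusted p = 1.46e-05), or 37.4-fold. Its mean was higher at each later time: 10.54 ± 0.44 at 1 h, 12.13 ± 0.39 at 3 h, 13.51 ± 0.32 at 6 h and 14.20 ± 0.21 at 12 h (log2 signal, SD, n = 2). The step from 3 h to 6 h was 1.37 with an interval from 0.56 to 2.19, which did not pass after adjustment over all probes (limma adjusted p = 0.47). The difference of 6 h from 12 h was -0.69 (-1.50 to 0.12).

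The probe GI_27754187-S had the largest measured fall among called probes detected on all 4 arrays. It read 7.30 and 9.30 on the A0 6 h arrays, against 10.28 and 11.07 on the control arrays. The treated arrays lay below both controls but far apart from each other. The log2 fold change was -2.38 (SE 0.59, limma adjusted p = 0.0402). This call was not stable: it was lost with 75th percentile centring (adjusted p = 0.0631), with the processed values (0.0886), and without A0 6 h array 1, where the change was -1.38 (0.306). It was also lost without control 1 (0.116), without control 2 (0.271), and, through the shared spread, without either A0 1 h array (0.0558) or either cisplatin 6 h array (0.0505).

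The probe GI_37552665-S fell with almost no gap between the treated arrays. It read 7.11 and 7.12 on the A0 6 h arrays, against 9.25 and 9.23 on the control arrays. The log2 fold change was -2.13 (SE 0.25, limma adjusted p = 0.000538), or 4.37-fold lower. Its mean was 8.94 ± 0.16 at 1 h, 8.36 ± 0.53 at 3 h, 7.12 ± 0.002 at 6 h and 6.65 ± 0.37 at 12 h (log2 signal, SD, n = 2). The difference of 6 h from 3 h was -1.25 with an interval from -1.79 to -0.70. This missed the threshold (limma adjusted p = 0.165).

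**Figure D2:**
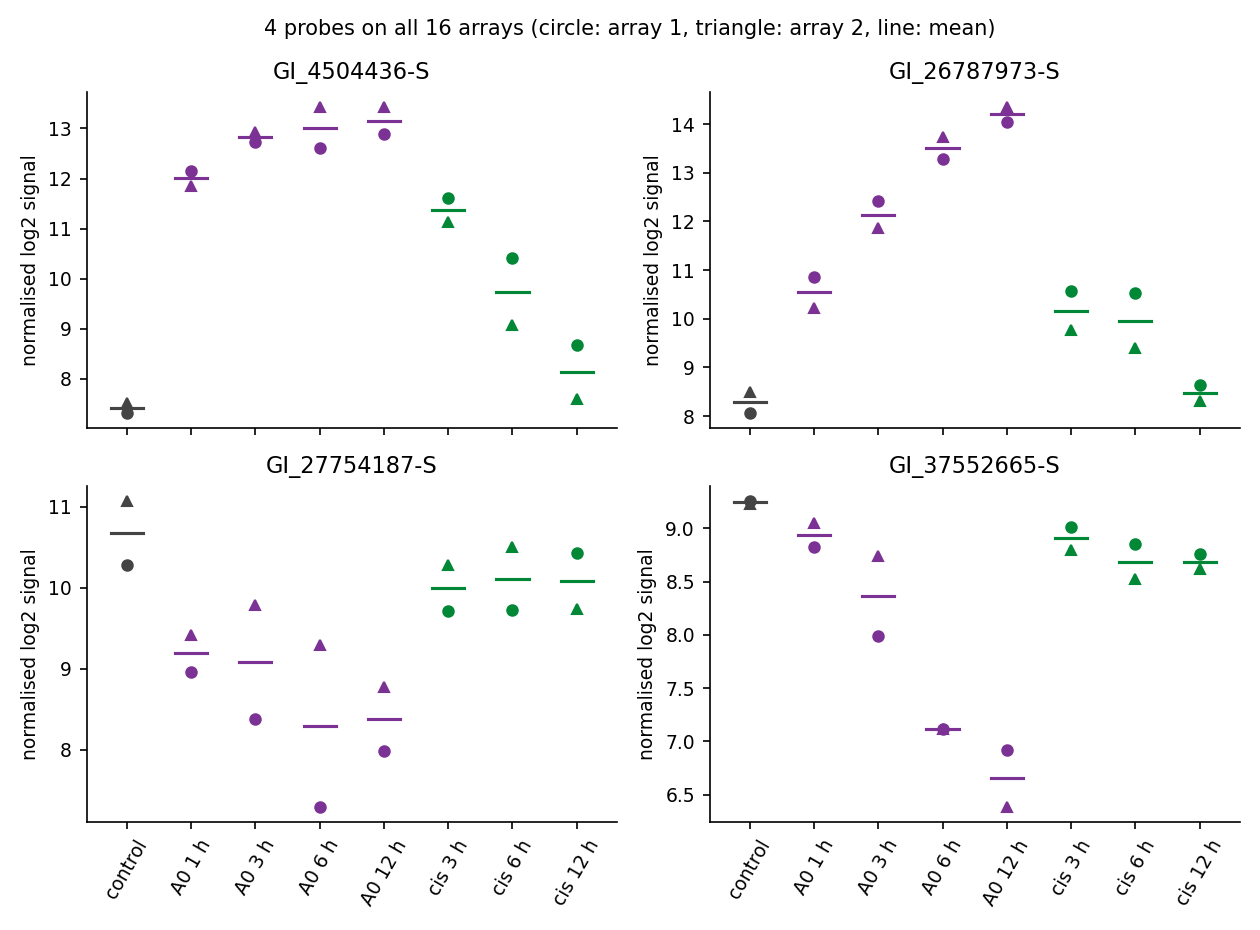
Normalised log2 signal of the 4 probes on all 16 arrays, by group, with control at the left, then A0 (purple) and cisplatin (green) in order of time. Circles are array 1, triangles array 2 and lines the mean of the 2, and the A0 6 h arrays of GI_37552665-S coincide while those of GI_27754187-S read 7.30 and 9.30.

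The arrays of the A0 6 h group were then set against each other. Across the 8565 probes the difference of array 2 minus array 1 had an SD of 0.501 on the log2 scale, against 0.323 for the control pair. Their Pearson correlation was 0.960, against 0.982 for the controls. At least 2-fold differences between the arrays occurred at 478 probes (5.58%), against 43 (0.502%) between the controls. By these measures A0 6 h was the widest of the 8 pairs. By the median absolute difference it was not: that was 0.293 for A0 6 h, 0.298 for cisplatin 3 h and 0.308 for cisplatin 12 h. The A0 6 h pair is thus set apart by a tail of strongly differing probes rather than by its typical probe.

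**Figure D3:**
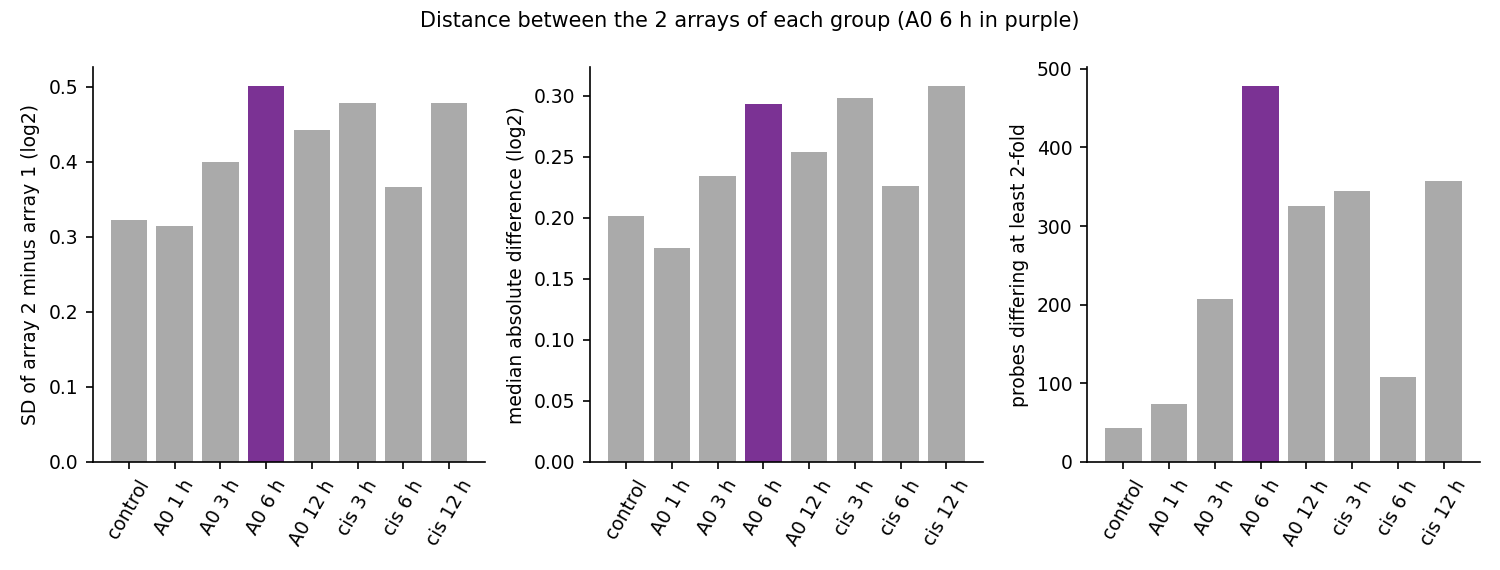
Distance between the 2 arrays of each group over the 8565 probes: the SD of the difference (left), the median absolute difference (middle), both on the log2 scale, and the number of probes at least 2-fold apart (right). A0 6 h, in purple, is the tallest bar at left (0.501) and right (478), but not in the middle (0.293).

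Part of that tail lay at the edge of detection and part did not. Array 2 was at least 2-fold higher at 299 probes, of which 133 were detected on both arrays and 166 on array 2 alone. Array 2 was at least 2-fold lower at 179 probes, of which 151 were detected on both and 28 on array 1 alone. Among the 7577 probes that both arrays detected, 284 differed at least 2-fold, the most of any pair. The next pair was cisplatin 3 h with 178. The gap narrowed with brightness: its SD was 0.589 among the 2141 dimmest probes and 0.364 among the 2142 brightest, against 0.344 and 0.278 for the control pair.

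The files also bear on how precisely a single array was read. Each probe value is a mean over beads, with a median of 42 beads on array 1 and 41 on array 2. The files give a spread per probe, which shrank with the bead number with a log-log slope of -0.47 on A0 6 h array 1 and -0.49 on array 2, close to the slope of a standard error, although the file header calls it a standard deviation. Which of these it is was not settled. Combined over both arrays, that spread was 0.0948 on the log2 scale for the median probe detected on both A0 6 h arrays, and 0.0976 for the control pair. The arrays themselves differed by a median of 0.211 in the A0 6 h pair and by 0.141 in the control pair, before quantile normalisation and after removing the median shift. A difference above 3 bead spreads was found at 35.1% of probes in the A0 6 h pair, 40.4% in cisplatin 3 h, 39.5% in cisplatin 12 h, 39.1% in A0 3 h and 18.0% in the control pair. The widest median difference was 0.250, in cisplatin 12 h.

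The probe with the widest gap between the A0 6 h arrays read 9.70 and 6.46 on the log2 scale on the A0 6 h arrays, against 5.30 and 4.74 on the control arrays, which did not detect it. Its intensity was 708.3 with a bead spread of 27.5 on array 1, and 207.6 with a bead spread of 10.9 on array 2. Its log2 change of 3.06 missed the threshold (limma adjusted p = 0.0510). The probe with the next widest gap read 8.95 and 6.10 on the A0 6 h arrays, against 5.62 and 5.34 on the control arrays (adjusted p = 0.176). At least 2-fold from control but not called were 189 probes, 76 higher and 113 lower.

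Each A0 6 h array was also compared with a control array of its own, so that the 2 responses shared no array. With control 1 for array 1 and control 2 for array 2, the responses correlated at 0.603 (Pearson) across the 8565 probes and had the same sign at 68.3% of them. With the controls exchanged the correlation was 0.463 and the sign agreed at 61.2%. Probes are not independent replicates, and these values describe the arrays only. In the first pairing 110 probes were at least 2-fold up on both arrays, 99 at least 2-fold down on both, and 2 at least 2-fold in opposite directions. A further 937 probes passed 2-fold on 1 array alone. With the controls exchanged the counts were 103, 86, 5 and 1178. In the other treated groups the correlation ran from 0.270 (cisplatin 3 h) to 0.739 (A0 12 h) with like-numbered controls. With exchanged controls it ran from 0.510 (cisplatin 3 h) to 0.643 (A0 12 h), above the 0.463 of A0 6 h. Probes that entered through 1 group alone favour responses in the same direction.

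**Figure D4:**
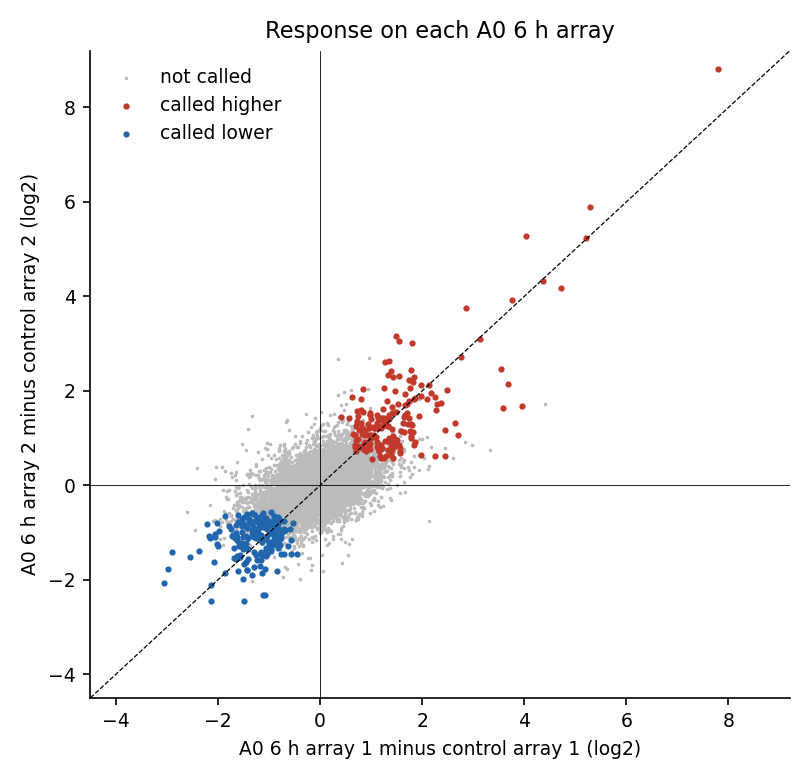
Log2 response of each of the 8565 probes on A0 6 h array 1 over control 1 (horizontal) and on A0 6 h array 2 over control 2 (vertical), with the dashed line marking equal responses. Called probes (red higher, blue lower) lie in the upper right and lower left, and the Pearson correlation over all points is 0.603.

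The 378 called probes lay further apart between the A0 6 h arrays than the 8187 others: the median gap was 0.348 against 0.290, and 28 (7.41%) against 450 (5.50%) were at least 2-fold apart. Against the control mean, the 183 probes called higher had a median of 1.34 on array 1 and 1.23 on array 2. The 195 called lower had a median of -1.22 on array 1 and -1.04 on array 2, and array 1 showed the larger fall at 125 of them and array 2 at 70. These splits depended on the scaling. With 75th percentile centring array 1 showed the larger fall at 96 and array 2 at 99. With the processed values, in which values below 16 were set to 16, the counts were 97 and 80, and the other probes were tied. A 2-fold change on both arrays was found at 99 of the 183 and at 80 of the 195. The count of 378 depended on the arrays used. It became 149 without A0 6 h array 1, with 115 of the 378 kept, and 528 without array 2, with 250 of the 378 kept. It was 54 without control 1 and 56 without control 2, and 49 when the spread came from the 4 compared arrays alone. In these refits the remaining array of a group is assumed to vary like the other groups.

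The suffix of a probe name tells whether it targets a gene's only transcript (S), 1 variant (I) or all variants (A). Calls were made at 322 of 7061 S probes (4.56%), 27 of 479 I probes (5.64%) and 29 of 1025 A probes (2.83%). There were 62 GI numbers with 2 probes among the detected ones. The log2 fold changes of such probes had the same sign at 43 of the 62 and differed by a median of 0.23. At 3 GI numbers both probes were called, each time in the same direction, and at 5 only 1 was.

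The place of the 6 h sample in the course of A0 was tested directly, without the controls in the difference. A0 6 h differed from A0 3 h at 0 of the 8565 probes (0%) in limma's test. Before adjustment 419 had a p under 0.05, against 428.25 that this level gives where no probe differs. That does not show that the times were alike. The 95% interval of a difference had a median half-width of 0.55 on the log2 scale, and it lay inside a 2-fold change in both directions at 79.8% of the probes. Without A0 6 h array 2, 8 probes were called, 7 higher and 1 lower at 6 h.

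A0 6 h differed from A0 12 h at 29 of the 8565 probes (0.339%), of which 20 were higher at 6 h (0.234%) and 9 lower (0.105%). Over all 9293 probes tested, 60 were called (0.646%), of which 20 were higher at 6 h (0.215%) and 40 lower (0.43%). The 8565 leave out probes seen only at other times, so nothing is read from the split. The median difference of the 20 from control was 0.05 at 1 h, -0.10 at 3 h, -0.09 at 6 h and -1.27 at 12 h. At 6 h, 3 of the 20 had themselves been called different from control, 1 higher and 2 lower. Of the 20, 18 were detected on neither A0 12 h array, so their signal at 12 h is only an upper limit. The 9 had medians of 0.10, 0.19, 0.46 and 1.79 at these times. Choosing probes by the difference of 6 h from 12 h widens that step in both sets. A further 31 probes outside the 8565 were also called lower at 6 h. All 31 entered the test through detection at A0 12 h, and 26 were detected on neither A0 6 h array, so their direction was set by the filter and nothing is read from it.

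These counts were sensitive to single arrays and to scaling. The 29 became 142 without A0 6 h array 2 and 13 without array 1, 7 without A0 12 h array 1, 13 without either control, and 18 without either A0 1 h or either cisplatin 6 h array. With 75th percentile centring 1 probe remained, and with another background correction 2 probes were higher and 8 lower. With only probes detected on all 4 arrays there were 0 calls.

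The probes called at 6 h are shown at all times for description. These values share the control arrays, and choosing probes by their 6 h values lifts their size at 6 h. The 183 risers had a median log2 difference from control of 0.80 at 1 h, 1.06 at 3 h, 1.25 at 6 h and 1.41 at 12 h. The 195 fallers had medians of -0.58, -0.72, -1.12 and -1.17 at the same times. Over all 8565 probes the medians lay between -0.07 and -0.03. At 12 h, 182 of the 183 and 195 of the 195 were on the same side of control as at 6 h. The probes were chosen against these same control arrays, which favours the same side, and persistence was not tested. With cisplatin, set against the same controls, the counts on that side were 169 and 167 at 3 h, and 133 and 105 at 12 h.

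**Figure D5:**
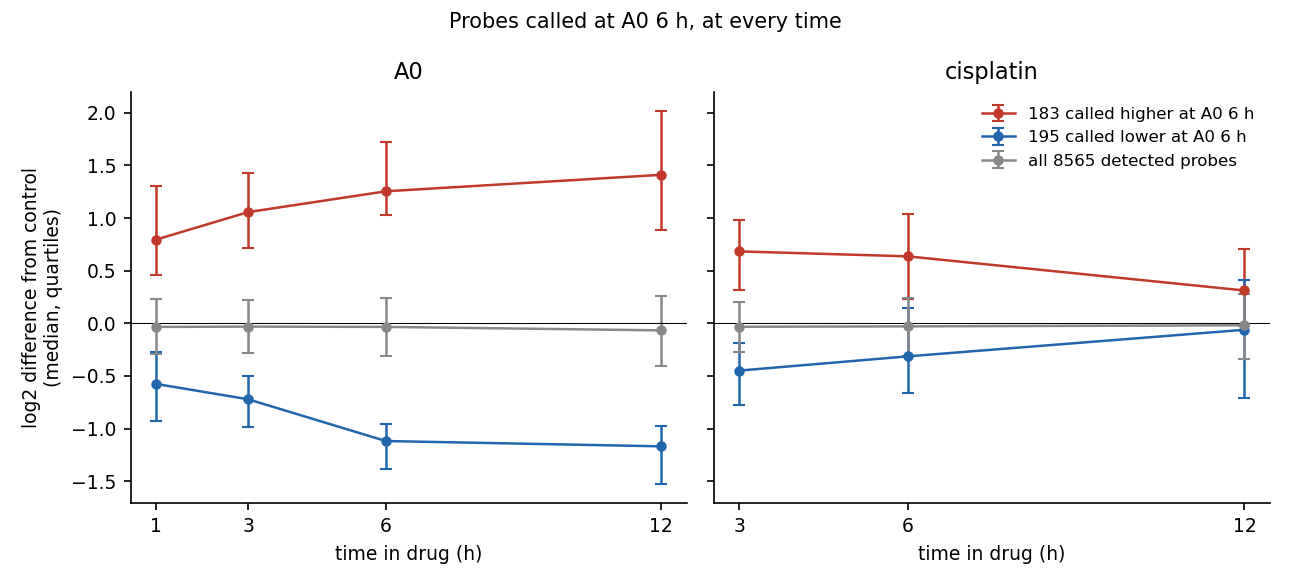
Median log2 difference from control, with quartiles as bars, of the 183 probes called higher (red) and the 195 called lower (blue) at A0 6 h and of all 8565 detected probes (grey), by hours in A0 (left) and in cisplatin (right). With A0 the medians at 12 h are 1.41 and -1.17, and with cisplatin at 12 h they are 0.31 and -0.06.

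Cisplatin, a platinum drug that forms adducts with DNA, was sampled at the same dose and time and tested against A0 directly. Of the 8565 probes, 303 had a higher signal in A0 6 h than in cisplatin 6 h (3.54%) and 394 were lower (4.60%), or 697 in all (8.14%). Over all 9293 probes tested the share was the same, with 756 called (8.14%), 306 higher (3.29%) and 450 lower (4.84%). The median size was 2.20-fold among the 303 and 2.25-fold among the 394. Of the 303, 23 were detected on neither control array and so entered through A0 6 h alone, which favoured their direction. Of the 303, 65 were detected on neither cisplatin 6 h array, and of the 394, 51 were detected on neither A0 6 h array, so the sizes of these are only bounds. The 303 stood at a median of 0.53 from control with A0 and at -0.68 with cisplatin. The 394 stood at -0.60 with A0 and at 0.58 with cisplatin. Both sets were chosen by this same difference, which favours medians on opposite sides of control. Opposite responses to the drugs are not read from them. Outside the 8565, 56 probes were called lower with A0 and 3 higher. Of the 56, 54 were detected on both cisplatin 6 h arrays and 49 on neither A0 6 h array, so nothing is read from their direction.

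Among the 183 risers of A0 6 h, 73 were higher than with cisplatin at 6 h and 3 were lower. Among the 195 fallers, 89 were lower than with cisplatin and 1 was higher. Both counts use the A0 6 h arrays on each side, and so carry the same array error. The risers had a median of 0.64 from control with cisplatin at 6 h and the fallers one of -0.31.

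The probe GI_4504436-S was 3.28 higher on the log2 scale in A0 6 h than in cisplatin 6 h (SE 0.43, limma adjusted p = 0.000897). GI_26787973-S was 3.55 higher (SE 0.38, adjusted p = 0.000222) and GI_37552665-S differed by -1.57 (adjusted p = 0.00223). GI_27754187-S differed by -1.81 (adjusted p = 0.0775), with an interval from -3.08 to -0.55. The cisplatin 6 h arrays of GI_4504436-S read 10.40 and 9.07, above both control arrays and below both A0 6 h arrays. The count of 697 became 395 without A0 6 h array 1, 357 and 166 without cisplatin 6 h array 1 and array 2, and 193 with only the 4 arrays compared.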

How the data were processed

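The deposited files of the authors hold, per the file headers, a mean bead intensity on a linear scale, a bead spread, a bead number and a detection score (a fraction from 0 to 1) for each probe. BeadStudio 1.5.1.3 is the tool named in the submitters' processing notes, and the signals are not normalised between arrays. A deposited table of the authors' processed intensity values served as an alternative, with values below 16 set to 16 before the log2 step.

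Signals were corrected and quantile normalised with neqc (offset 16, log2) in limma 3.58.1 under R 4.3.3. Probes with a score of at least 0.99 on both arrays of any of the 8 groups were tested (9293). One linear model over the 16 arrays (8 residual and 5.7 prior degrees of freedom) gave 4 comparisons, with Benjamini-Hochberg adjustment over the 9293. The number of arrays limits the precision: 7626 to 9640 probes were detected per array and the median signal was 93.5 to 130.7. On data simulated for A0 6 h against control, with 200 of 9293 probes changed, the test found 4% of those changed 1.5-fold, 46% at 2-fold and 99.2% at 4-fold, with 4.52% of calls false. The simulated noise was independent and normal, with the same spread for a probe on every array. In the data the A0 6 h pair differed with an SD of 0.501, against 0.323 for the control pair. The simulated shares therefore need not hold for the real arrays.

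Named probes were the first 2 risers and the first 2 fallers among calls detected on all 4 arrays with no overlap. The 2 probes with the widest gap between the A0 6 h arrays are described without identifiers. The probes, 15 gene lists (252 entries, 0 matched) and tests were chosen with earlier results of these data known. The main model did not use the replicate numbers to pair the samples, because no label says that they mark a shared batch. Of 28 correlations between groups of the difference of array 2 minus array 1, 18 exceeded 0.1. The median was 0.14 and the lowest -0.27. Whether like-numbered arrays share a batch was not tested. Alternatives covered background, scaling, filter, arrays in the model, variance, weights, a replicate block, a 2-fold minimum and leaving out each array.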

Additional observations from a re-analysis of the deposited data

Results flagged for a closer look

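The responses to the 2 drugs at 6 h differed by a direct test at 697 of the 8565 probes, with A0 higher at 303 and lower at 394. The 697 are 8.14% of the 8565, the same share as over all 9293 probes tested. Among the named probes the difference of A0 6 h minus cisplatin 6 h was 3.28 on the log2 scale for GI_4504436-S, 3.55 for GI_26787973-S and -1.57 for GI_37552665-S. Within A0, the 6 h and 12 h samples differed by a direct test at 29 of the 8565 probes (0.339%), and at 60 of all 9293 tested (0.646%).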

How the results depend on the processing

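For A0 6 h against control the 378 became 214 with no filter, 49 with only the 4 arrays compared and 653 with the replicate block. For A0 6 h against A0 12 h the 29 became 10 with the other background correction, 1 with 75th percentile centring, 14 with no filter, 0 with probes detected on all 4 arrays, 0 with only the 4 arrays compared, 1 with array weights and 44 with the replicate block. For A0 6 h against cisplatin 6 h the 697 became 193 with only the 4 arrays compared. When single arrays were left out the counts ran from 54 to 528 against control, 0 to 8 against A0 3 h, 7 to 142 against A0 12 h and 166 to 766 against cisplatin 6 h. The replicate block gave 0 against A0 3 h and 871 against cisplatin 6 h. Among the named probes, leaving out single arrays turned signs only in differences that had not passed: GI_4504436-S ran from -0.22 to 0.59 against A0 3 h and from -0.54 to 0.27 against A0 12 h, and GI_27754187-S from -1.79 to 0.22 and from -1.08 to 0.92. The call of GI_27754187-S against control was also lost with no filter (adjusted p = 0.105), with only the 4 arrays (0.131) and with a trended and robust variance (0.0590), and its difference from cisplatin passed with the other background correction (0.0337), the replicate block (0.0210) and without A0 6 h array 2 (0.0129). The calls of the other 3 against control held under every alternative run. Why the counts moved was not tested. The SD of the A0 6 h pair was 0.496 with percentile centring and 0.615 with the processed values, the widest of the 8 pairs each time. Called probes undetected on both arrays of a group, 38 higher and 46 lower against control, have only bounds for their size, and the filter set their direction.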

Other observations

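None of the 4 bacterial probes reached a detection score of 0.99 on the A0 6 h or control arrays. Their signals ran from 95.7 to 125.6 on the A0 6 h arrays, against 84.5 to 122.1 on the control arrays.

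The difference of array 2 minus array 1 in A0 6 h correlated across the 8565 probes with the same difference in the other 7 groups at 0.08 (cisplatin 12 h) to 0.39 (A0 3 h), and at 0.22 with the control pair. Probes are not independent replicates, and the numbers carry no stated meaning in the labels.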
